A study of Mus musculus with 8 samples.

Results

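Hox genes encode the homeodomain transcription factors that give cells their address along the body axis and along the limb. Their transcripts were followed here in mouse paw tissue, together with those of 3 genes that set a limb's identity, Pitx1, Tbx4 and Tbx5. Members were every gene symbol made of Hox, a cluster letter from a to d and a paralog number, plus these 3 genes, which gave 42 of the 22609 gene symbols in the count tables. The 39 Hox genes comprised 11 in the HoxA cluster, 10 in HoxB, 9 in HoxC and 9 in HoxD. Polyadenylated RNA was sequenced from paw tissue of C57BL/6J mice in 4 female and 4 male libraries. All 8 libraries carry the same treatment label, 0.1 µg of prolactin (PRL, a pituitary hormone) injected into the paw daily for 12 days. The labels' protocol also names vehicle and single-injection arms, which were not analysed here, so no untreated paw stands behind these values. The age of the mice, the paw used (fore or hind) and the skin, muscle or bone taken with it are not stated in the labels. No label says that each library is a different animal, so p-values measure the spread between these libraries, which may be technical.

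Within each cluster, Hox genes lie in the order in which they are used along the body, and genes of the same number in different clusters (paralogs) are related copies. Low-numbered (anterior) genes act toward the head and hindbrain, and high-numbered (posterior) genes act in the trunk, tail and limbs. In the embryonic limb, paralogs 9 and 10 pattern the upper segment, paralog 11 the middle segment and paralog 13 the hand and foot. Tbx5 is required to start the forelimb, whereas Tbx4 and its activator Pitx1 belong to the hindlimb. Adult skin fibroblasts keep much of the Hox pattern of the place they came from.

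The libraries held 16753528 to 24993744 counts in genes, and a count of 0 allows a level of up to 3 counts, or 0.12 to 0.179 CPM (the unit of all levels below, read counts scaled to a library of fixed size). That limit covers counting error only. Markers of paw tissue were present: 10 keratinocyte genes summed to 64579 to 102940 CPM and 10 dermal fibroblast genes to 7607 to 18214 CPM. Bone was close to absent, with 2 of 10 cartilage and bone genes and 1 of 9 bone marrow genes passing the filter on low counts. Muscle content differed widely between the libraries. The share of counts in 20 fast skeletal muscle genes was 2.42, 0.341, 0.0049 and 0.687% in female replicates 1 to 4, against 0.531, 3.06, 0.745 and 0.109% in male replicates 1 to 4. Female replicate 3 was nearly free of muscle transcripts, and male replicate 2 held the most. Xist and 4 Y-linked genes separated the 8 libraries as labelled.

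Posterior HoxA, HoxC and HoxD transcripts were the main Hox RNAs of the paw. Of the 39 Hox genes, 35 had at least 1 count in every library, 25 had at least 20 counts in every library, and 2 (Hoxb13 and Hoxd1) had none in any. Hox RNA summed to 209 ± 18.4 CPM in the female and 200 ± 11.2 CPM in the male libraries (here and below, ± is the SD with n = 4 per sex, unless said otherwise). Paralogs 9 to 13 made up 69.9 ± 2.34% of Hox counts in females and 70.9 ± 2.89% in males. Paralogs 4 to 8 made up 25.3 ± 2.31% in females and 24.7 ± 3.14% in males, and paralogs 1 to 3 made up 4.82 ± 0.457% in females and 4.41 ± 0.622% in males. In bulk tissue, fewer cells that use a gene and less RNA per cell cannot be told apart.

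**Figure D1:**
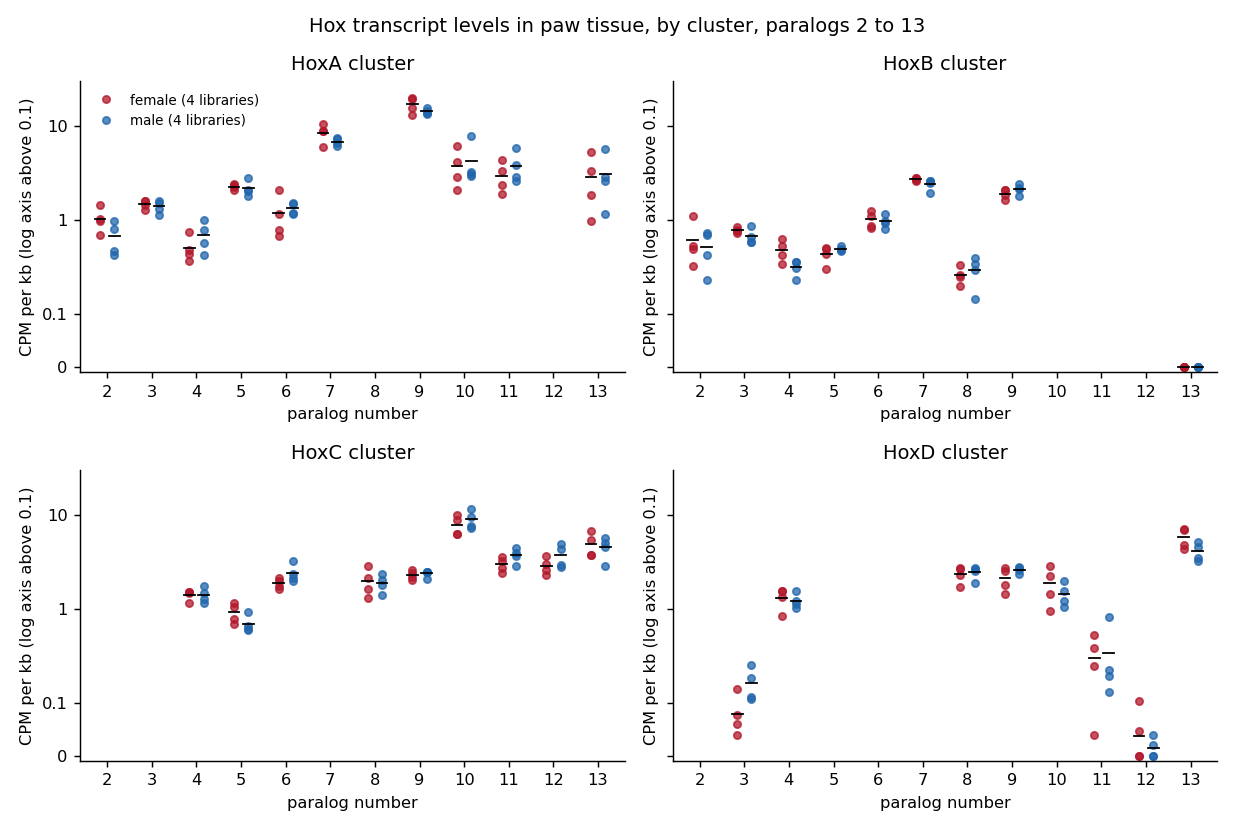
Transcript level of each Hox gene (CPM per kb of exon, vertical axis, logarithmic above 0.1 and linear below) by paralog number from 2 to 13 (horizontal axis), 1 panel per cluster. Points are libraries (female left, male right) and short bars are group means; a position without points has no gene in the table. HoxA levels peak at paralog 9 (mean 15.6 over 8 libraries), and Hoxb13 lies at 0.

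Levels between genes were compared per kilobase of exon (CPM per kb, averaged over 8 libraries unless a sex is named). Hoxa9, a posterior gene also known for keeping blood stem cells growing, led at 17 ± 3.26 CPM per kb in females and 14.3 ± 0.924 in males. It alone held 17.4% of the summed Hox level per kb, and 20.2 to 31.1% of all Hox counts in the separate libraries. Hoxc10, a gene of the hind trunk and hindlimb, followed at 7.85 ± 1.84 CPM per kb in females and 8.9 ± 2.04 in males, and Hoxa7, a trunk gene, at 8.53 ± 1.84 in females and 6.84 ± 0.583 in males. Hoxa9 exceeded Hoxc10 in 8 of 8 libraries, while Hoxc10 exceeded Hoxa7 in 6 of 8 and Hoxa7 exceeded Hoxd13 in 7 of 8. The first 3 genes together held 35.3% of the Hox level per kb, the first 5 held 46% and the first 10 held 65%.

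Next in order came the genes of the foot and its skin. Hoxd13, which shapes the digits, averaged 5.8 ± 1.44 CPM per kb in females and 4.08 ± 0.896 in males. Hoxc13, which hair and nail need, averaged 4.91 ± 1.45 in females and 4.51 ± 1.18 in males. These neighbours had no fixed order: Hoxd13 was the higher of the pair in 3 of 8 libraries. Below them lay Hoxa10 at 4.05 CPM per kb, Hoxa11 at 3.39, Hoxc11 at 3.35, Hoxc12 at 3.31, Hoxa13 at 2.97 and Hoxb7 at 2.56, and every pair of neighbours in this run changed order in at least 1 library. With the length of the longest transcript alone, Hoxa10 moved to rank 4 of the 42, its rank being 6 here. Among the 15 most abundant members, the one step in the order that held in all 8 libraries was Hoxa9 over Hoxc10.

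The clusters did not contribute evenly. HoxA held 44.8% of the summed Hox level per kb, HoxC 31.6%, HoxD 14.6% and HoxB 8.96%. As a share of Hox counts, HoxA took 50.8 ± 1.95% in females and 48.7 ± 2.51% in males, and HoxC took 25.6 ± 2.23% in females and 28.8 ± 2.73% in males. HoxD took 15.8 ± 3.67% in females and 14.6 ± 0.568% in males, and HoxB took 7.83 ± 0.48% in females and 7.86 ± 0.118% in males. The groups of libraries overlapped in each of the 4 shares. The widest spread was that of HoxD among females, between 12.1% in female replicate 3 and 20.3% in female replicate 4.

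Summed over clusters, the level per kb peaked at paralog 9 (22.3 ± 2.21 over 4 genes, SD over 8 libraries). Most of that sum was Hoxa9 (15.6), with Hoxd9 at 2.37, Hoxc9 at 2.34 and Hoxb9 at 2.02. Paralog 10 summed to 14.1 ± 4.03 over 3 genes, paralog 13 to 12.6 ± 2.09 over 4 and paralog 7 to 10.3 ± 1.62 over 2. The sums thus differ in the number of genes added. Paralog 11 summed to 7.06 ± 1.54 over 3 genes. Paralog 12 summed to 3.34 ± 0.914 over 2 genes, nearly all of it Hoxc12, since Hoxd12 averaged 0.027.

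Within HoxA, the low-numbered genes were low but present. Hoxa2 and Hoxa3, known for patterning the hindbrain and throat, averaged 0.86 and 1.44 CPM per kb, Hoxa4 0.604, Hoxa5 2.23 and Hoxa6 1.26. Exons of Hoxa7 and Hoxa3 overlap antisense genes, with 27% and 26.3% of their 50-base stretches also found in another gene's transcripts. The counting's strand setting is not known, so their levels are uncertain; how many reads this touches was not measured. Hoxa9, Hoxa10 and Hoxa13 share no such stretch.

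In HoxB, Hoxb7 and Hoxb9 had the highest levels. Hoxb7 averaged 2.56 CPM per kb and Hoxb9 2.02, both trunk genes, followed by Hoxb6 at 0.997, Hoxb3 at 0.733, Hoxb2 at 0.571, Hoxb5 at 0.468, Hoxb4 at 0.4 and Hoxb8 at 0.279. Hoxb1, a hindbrain gene, had 1 count in each of 3 libraries and none in the other 5. Hoxb13, a gene of the tail and prostate, had 0 counts in every library. Hoxb2 and Hoxb3 share 57.3% and 62.2% of their stretches with an antisense transcript, which makes their levels uncertain.

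In HoxC, every gene was detected in every library. Hoxc9, a trunk gene, averaged 2.34 CPM per kb, Hoxc6 2.15, Hoxc8 1.94, Hoxc4 1.42 and Hoxc5 0.811, below the 4 posterior genes Hoxc10 to Hoxc13. In HoxD, the levels formed separate humps. Hoxd8 averaged 2.39 CPM per kb, Hoxd9 2.37 and Hoxd10 1.66. Hoxd11, a gene of the forearm and lower leg, averaged 0.321 and Hoxd12 0.027, although Hoxd13 beside them averaged 4.94. Hoxd13 had 300, 259, 243 and 448 counts in female replicates 1 to 4, against 171, 237, 208 and 164 in male replicates 1 to 4. Hoxd12 had 2, 0, 0 and 7 counts in the females, against 2, 1, 0 and 0 in the males. The drop between these neighbours was thus seen in every library. At the other end, Hoxd4 averaged 1.27, Hoxd3 0.123, and Hoxd1 had 0 counts in all 8 libraries. Hoxd3 shares 86.3% and Hoxd4 42.2% of their stretches with other genes, so their split is uncertain. Hoxd11 shares 20.5% of its stretches with another gene, so its level is uncertain too.

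Among the limb identity genes, Tbx4 stood well above the others. Tbx4 had 160, 117, 105 and 234 counts in female replicates 1 to 4, against 180, 139, 126 and 127 in male replicates 1 to 4. Tbx5 had 7, 9, 30 and 41 counts in the females, against 37, 22, 22 and 20 in the males, and Pitx1 had 11, 12, 7 and 11 in the females, against 29, 4, 13 and 18 in the males. The sexes overlapped for each of the 3 genes. Per kb, Tbx4 averaged 2.19 ± 0.753 CPM in females and 2.26 ± 0.361 in males, Tbx5 0.237 ± 0.154 in females and 0.33 ± 0.095 in males, and Pitx1 0.197 ± 0.061 in females and 0.331 ± 0.207 in males. Tbx4 per kb exceeded Tbx5 in 8 of 8 libraries, by a factor of 4.24 in female replicate 3 to 27.7 in female replicate 1 (median 7.29). Pitx1 over Tbx5 ran between 0.292 in male replicate 2 and 2.53 in female replicate 1, with no fixed order. The labels do not name the limb, and these ratios were not set against a paw of known origin.

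**Figure D2:**
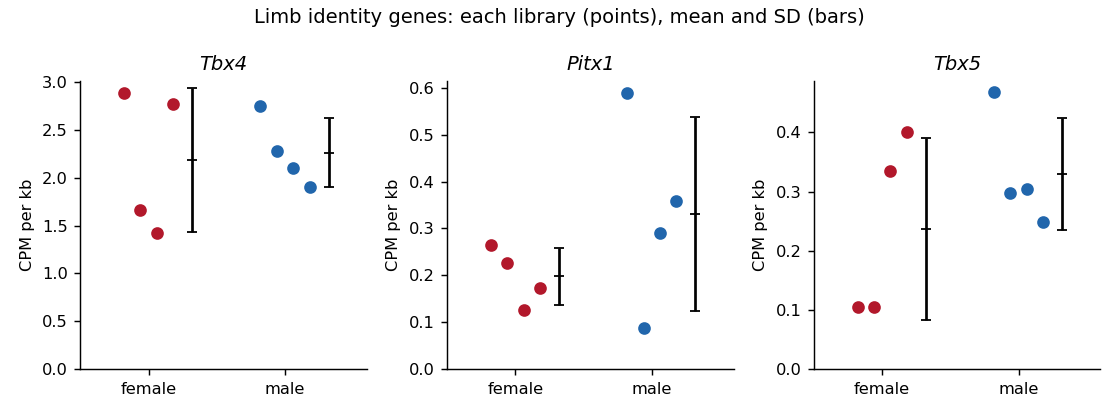
Level of Tbx4, Pitx1 and Tbx5 (CPM per kb of exon, vertical axis; the scale differs between panels) in 4 female and 4 male libraries. Points are libraries in replicate order, and bars give the mean and SD. Tbx4 stays above 1.4 in every library, while both others stay below 0.6.

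The design's one contrast is sex. No member passed the test between females and males (edgeR quasi-likelihood test, Benjamini-Hochberg adjusted over 14790 genes, threshold 0.05): 0 of 35 tested members were called, where 0.0947% of all tested genes were called. The other 7 members, among them Hoxd11 and Hoxd12, did not pass the filter on low counts. In simulated counts, the same test called 5 of 67 genes set to differ 1.5-fold, 30 of 66 at 2-fold and 62 of 66 at 4-fold. Differences of 2-fold or less between the sexes can therefore be missed. The simulation drew each gene's spread from the trend over all genes. Its rates may not hold for members of wide spread, such as Hoxa13 (SE of the log2 fold change 0.59). At an unadjusted p under 0.05 there was 1 member, Hoxd13, against 6.51% of all genes. DESeq2 also called 0 members, with 1 at an unadjusted p under 0.05, and limma-voom called 0, with 0 at that level. For none of the 42 members did the female libraries lie entirely above or below the male ones, a separation that 4.71% of tested genes showed.

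Of the 35 log2 fold changes (female over male), 16 were above 0 and 19 below, with a median of -0.05, while 52.6% of all tested genes were above 0, with a median of 0.01. Paralogs 1 to 3 had 4 of 4 tested genes above 0 (of 8 in the files), and paralogs 9 to 13 had 9 of 13 below. Not all of these signs were stable. The sign changed in 4 of 18 other settings of the fit for Hoxa10, in 5 of 18 for Hoxa13 and in 2 of 17 for Hoxb2. Others, such as Hoxa2, Hoxb3 and Hoxd9, kept theirs throughout. Hoxd13 averaged 14.4 ± 3.58 CPM over the females and 10.1 ± 2.23 CPM over the males, and its log2 fold change was 0.51 (SE 0.22, adjusted p = 0.758 by edgeR). Female replicate 1 (17.6 CPM) and female replicate 4 (17.3 CPM) lay above every male, whereas female replicates 2 and 3 (12 and 10.7 CPM) lay inside the male range of 8.02 to 12.7 CPM. The values furthest from 0 were those of Hoxa2 (0.62, SE 0.34), Hoxb4, which acts in blood stem cells and the neck (0.61, SE 0.27), and Pitx1 (-0.76, SE 0.52), with edgeR adjusted p-values of 0.841, 0.769 and 0.91. Pitx1 rested on 4 to 29 counts per library. Hoxa9 averaged 54.7 ± 10.5 CPM over the females and 46 ± 2.98 CPM over the males, and its log2 fold change was 0.25 (SE 0.14, adjusted p = 0.841 by edgeR).

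**Figure D3:**
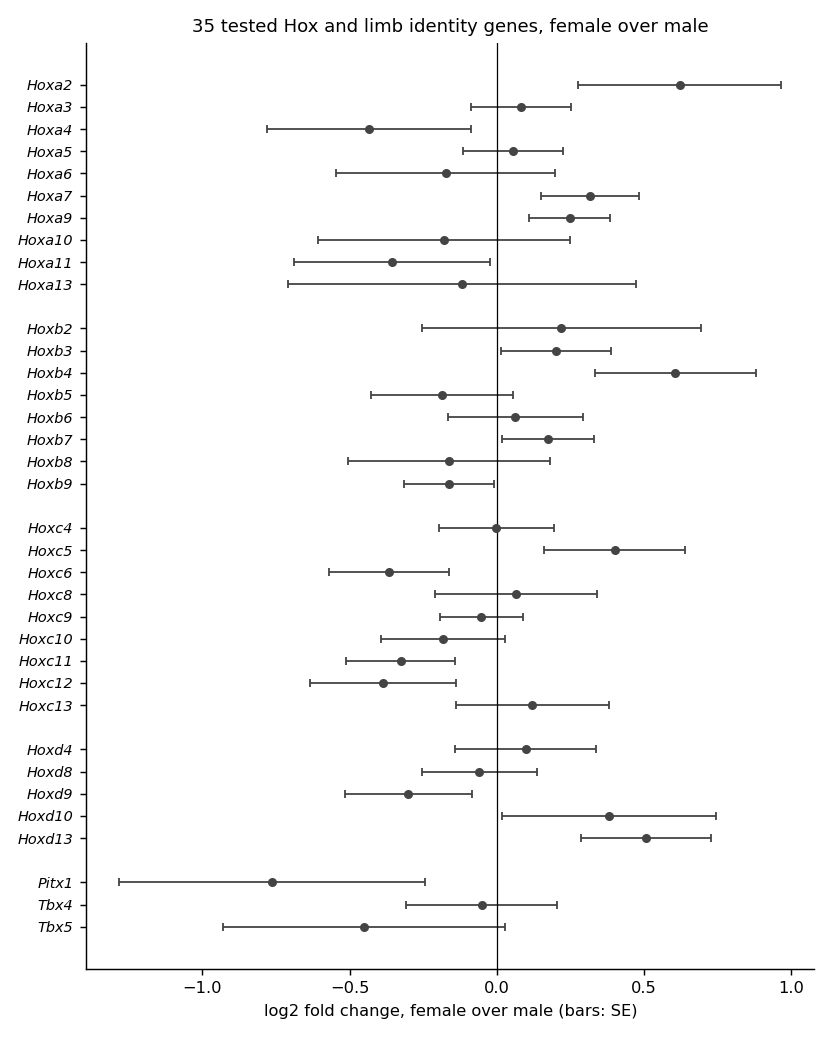
Log2 fold change, female over male (horizontal axis), for the 35 tested members in cluster order (vertical axis). Points are edgeR estimates and bars their SE; none passed the adjusted threshold, and the values run from -0.76 (Pitx1) to 0.62 (Hoxa2).

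In HoxA, 3 posterior genes were called higher with the muscle content of the library when all 8 libraries were fitted. They were Hoxa13 (hand and foot), Hoxa11 (forearm and lower leg) and Hoxa10 (upper segment, also known in the uterus). The calls depended on single libraries: none of the 3 was called without female replicate 1, or without both female replicate 3 and male replicate 2. A fast muscle score was the mean log2 CPM of the 20 fast muscle genes in a library, and a second edgeR fit held sex equal and tested the slope on that score. Among 35 tested members, 3 were called, all higher with more muscle, and 0 lower. Among all tested genes 5.71% were called, 4.87% higher and 0.838% lower. The median slope of the members was 0.005 log2 units per unit of score, beside 0.004 over all tested genes. The score was 9.54, 6.63, 0.673 and 7.58 in female replicates 1 to 4, against 7.26, 10, 7.89 and 4.92 in male replicates 1 to 4.

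Hoxa13 had 6.88, 2.4, 1.28 and 4.36 CPM in female replicates 1 to 4, against 3.39, 7.47, 3.76 and 1.52 CPM in male replicates 1 to 4. The highest values were in male replicate 2 and female replicate 1, the most muscle-rich libraries, and the lowest in female replicate 3 and male replicate 4, the poorest. Its slope was 0.31 log2 units per unit of score (SE 0.047, edgeR adjusted p = 0.0079). Hoxa10 had 19.1, 9.1, 6.52 and 13 CPM in the females, against 9.22, 24.9, 10.3 and 9.64 CPM in the males, with a slope of 0.19 (SE 0.044, edgeR adjusted p = 0.047). Hoxa11 had 10, 5.36, 4.32 and 7.56 CPM in the females, against 6.63, 13.5, 8.72 and 6.02 CPM in the males, with a slope of 0.15 (SE 0.035, edgeR adjusted p = 0.043). For both, the top libraries were again male replicate 2 and female replicate 1 and the lowest was female replicate 3. Hoxa11 shares 800 exon bases, and 33.7% of its stretches, with its antisense RNA Hoxa11as, which was itself called (slope 0.21, SE 0.044, edgeR adjusted p = 0.032), so the level and slope of Hoxa11 are uncertain in that overlap without the strand setting.

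**Figure D4:**
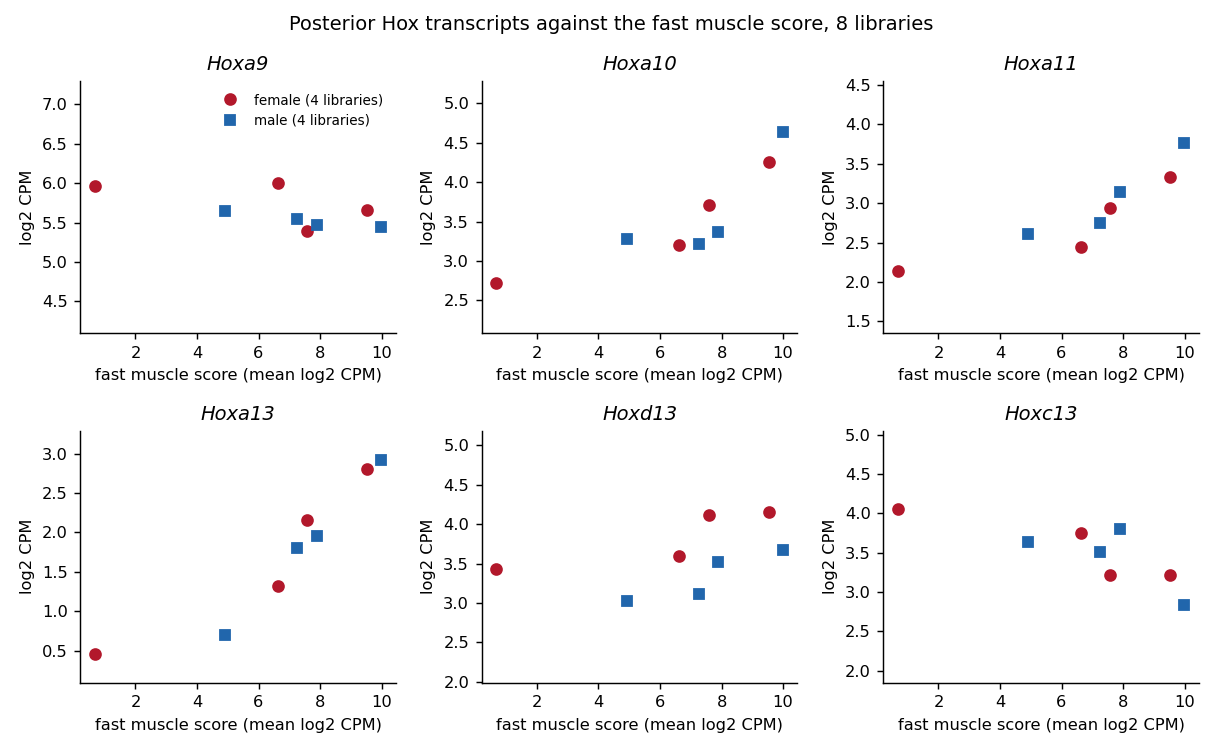
Level of 6 posterior Hox genes (log2 CPM, vertical axis; each panel spans the same number of log2 units) against the fast muscle score (mean log2 CPM of 20 fast muscle genes, horizontal axis), 1 point per library. Hoxa13, Hoxa10 and Hoxa11 are lowest in female replicate 3 (score 0.673) and highest in male replicate 2 (score 10), while Hoxc13 has the reverse order at those ends.

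The neighbours of these genes had other values. Hoxa9 had 50.4, 64, 62.5 and 41.8 CPM in female replicates 1 to 4, against 46.5, 43.6, 44 and 50.1 CPM in male replicates 1 to 4. Its slope was -0.04 (SE 0.022, edgeR adjusted p = 0.246) and did not pass the test. Hoxa13 per kb amounted to 0.05 of Hoxa9 in female replicate 3 and to 0.423 of it in male replicate 2. Hoxa10 over Hoxa9 ran between 0.107 and 0.586 in the same libraries, and Hoxa11 over Hoxa9 between 0.097 and 0.436. Per kb, Hoxa13 over Hoxd13, the other hand and foot gene, ran between 0.226 in female replicate 3 and 1.12 in male replicate 2. Hoxd13 itself had a slope of 0.09 (SE 0.027, edgeR adjusted p = 0.078), Hoxd10 0.15 (SE 0.048, edgeR adjusted p = 0.104) and Tbx4 0.1 (SE 0.037, edgeR adjusted p = 0.137). None of these passed the test, nor did any HoxB gene.

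Hoxc13 had 9.18, 13.4, 16.6 and 9.22 CPM in the females, against 11.3, 7.05, 13.8 and 12.3 CPM in the males. Its highest value was in female replicate 3 and its lowest in male replicate 2. The slope on muscle was -0.11 (SE 0.034, edgeR adjusted p = 0.101) and did not pass the test. The mean log2 CPM of 18 genes of the hair shaft and its sheath was 4.24, 3.75, 5.38 and 3.78 in the females, against 3.65, 2.73, 4.79 and 4.16 in the males. That score also peaked in female replicate 3 and was at its lowest in male replicate 2. Its part in the level of Hoxc13 was not tested.

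**Figure D5:**
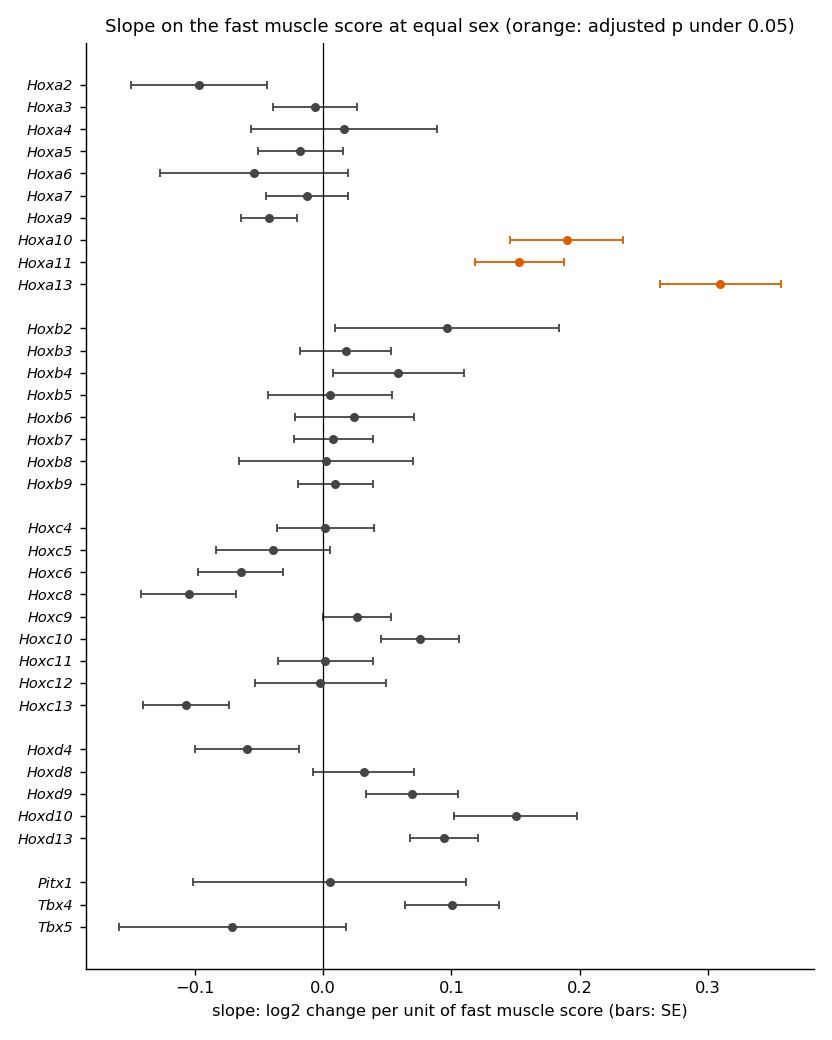
Slope on the fast muscle score at equal sex (log2 units per unit of score, horizontal axis) for the 35 tested members (vertical axis). Points are edgeR estimates, bars are SE, and orange marks an adjusted p under 0.05, reached by Hoxa10 (0.19), Hoxa11 (0.15) and Hoxa13 (0.31).

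Markers of some other cell types were called with the score. Among muscle satellite cell markers, 3 of 6 tested were called higher with muscle: Myod1, the muscle master regulator (slope 0.98), Myf5, its relative (0.81), and Chodl (0.45). Pax7, the defining marker of resting satellite cells, was not (slope 0.04, SE 0.054, edgeR adjusted p = 0.627). The list's summed level was 5.95 to 27.4 CPM in females and 4.26 to 38 CPM in males, and Calcr stayed under the filter. Of 6 tendon markers, Thbs4 (slope 0.18) and Fmod (0.32) were called higher, with summed levels of 267 to 1120 CPM in females and 289 to 1005 CPM in males. Of 10 dermal fibroblast genes 0 were called, and of 10 keratinocyte genes 1 was called lower, Ivl, a cornified envelope protein (slope -0.07, SE 0.014, edgeR adjusted p = 0.038). In the lists for hair, cartilage and bone, bone marrow, leukocytes, endothelium, Schwann cells and adipocytes, 0 genes were called with the score. The part of these cell types in the Hox slopes was not tested.

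Hoxa10 and Hoxa11 stayed called without female replicate 2 (edgeR adjusted p = 0.026 and 0.017) and without female replicate 3 (0.045 and 0.022). Both calls were lost without female replicate 1 (edgeR adjusted p = 0.243 and 0.24), without female replicate 4 (0.07 and 0.064) and without male replicate 1 (0.074 and 0.072). They were lost likewise without male replicate 2 (0.089 and 0.108), without male replicate 3 (0.072 and 0.085) and without male replicate 4 (0.125 and 0.134). Hoxa13 stayed called whichever library was left out, except female replicate 1 (edgeR adjusted p = 0.074). Without both female replicate 3 and male replicate 2, the slopes were 0.46 for Hoxa13, 0.21 for Hoxa11 and 0.17 for Hoxa10, with edgeR adjusted p-values of 0.058, 0.404 and 0.563.

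The 250 bases before the start of each of these HoxA genes are shown because the genes lie side by side on chromosome 6. In the fit of all libraries, Hoxa13, Hoxa11 and Hoxa10 were called with the muscle score and Hoxa9 was not. A difference between their slopes was not tested. The sequences are RefSeq's, from build GRCm38.p6, on the minus strand, and are written 5′ to 3′. Capitals mark CANNTG, the letters of an E-box, a motif bound by basic helix-loop-helix proteins such as Myod1, searched on both strands. Hoxa10 has 2 annotated starts. The windows are chr6:52260881-52261130 for Hoxa13, chr6:52245811-52246060 for Hoxa11, chr6:52240855-52241104 and chr6:52234940-52235189 for the upstream and downstream start of Hoxa10, and chr6:52227371-52227620 for Hoxa9.
Hoxa13: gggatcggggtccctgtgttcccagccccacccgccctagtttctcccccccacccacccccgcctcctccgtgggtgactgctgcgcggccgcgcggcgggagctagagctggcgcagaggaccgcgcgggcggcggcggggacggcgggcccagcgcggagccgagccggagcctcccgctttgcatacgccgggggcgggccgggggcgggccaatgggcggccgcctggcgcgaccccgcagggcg
Hoxa11: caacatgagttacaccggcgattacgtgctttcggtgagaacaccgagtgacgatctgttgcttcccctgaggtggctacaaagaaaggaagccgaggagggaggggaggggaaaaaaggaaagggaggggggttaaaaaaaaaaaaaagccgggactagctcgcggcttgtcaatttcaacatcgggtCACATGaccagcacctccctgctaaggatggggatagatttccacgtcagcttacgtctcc
Hoxa10, upstream start: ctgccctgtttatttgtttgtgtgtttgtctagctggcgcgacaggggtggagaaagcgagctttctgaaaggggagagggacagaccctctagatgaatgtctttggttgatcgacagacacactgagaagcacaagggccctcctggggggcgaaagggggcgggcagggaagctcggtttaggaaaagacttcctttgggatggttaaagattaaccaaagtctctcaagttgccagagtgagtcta
Hoxa10, downstream start: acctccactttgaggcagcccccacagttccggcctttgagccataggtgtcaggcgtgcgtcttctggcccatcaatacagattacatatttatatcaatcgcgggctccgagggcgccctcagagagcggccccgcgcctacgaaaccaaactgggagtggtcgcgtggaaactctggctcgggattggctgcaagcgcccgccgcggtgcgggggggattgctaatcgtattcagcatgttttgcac
Hoxa9: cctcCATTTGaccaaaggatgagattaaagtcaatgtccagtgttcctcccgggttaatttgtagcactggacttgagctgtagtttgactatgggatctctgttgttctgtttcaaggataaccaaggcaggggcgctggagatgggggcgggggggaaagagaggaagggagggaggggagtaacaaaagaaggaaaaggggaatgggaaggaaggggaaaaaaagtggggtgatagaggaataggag

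The Hoxa13 window held 35 CpG dinucleotides and was 80% G or C, where all 32851 mouse windows of this length had a median of 6 CpG (quartiles 2 and 16) and of 52.4% G or C. The Hoxa11 window held 13 CpG, those of Hoxa10 held 7 and 20, and that of Hoxa9 held 3. CANNTG occurred once in the Hoxa11 window and once in the Hoxa9 window and in no other of these 5, while 66.2% of all windows held it. CAGCTG, an overlapping form of the same motif, occurred in none of the 5 and in 13% of all windows. TATAAA, searched on both strands, occurred once, on the strand opposite to the one printed in the window of the downstream Hoxa10 start, and in 12.4% of all windows. A match describes letters in these windows only.

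Partners and regulators of Hox proteins were looked at in the same fits. Of the 9 cofactors of the TALE family (Pbx, Meis and Pknox proteins, which bind DNA together with Hox proteins), 0 were called between the sexes. Meis1 had a log2 fold change of 0.39 (SE 0.19), with an adjusted p of 0.771 in edgeR. With the muscle score 1 of 9 was called, Pknox2, which was higher with more muscle (slope 0.43, edgeR adjusted p = 0.024). Among all tested genes, 4.87% were called higher with the score. Of 21 noncoding RNAs of the Hox clusters, 7 were in the files and 2 were tested. Neither was called between the sexes, and Hoxa11as was called with muscle as given above.

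Chromatin regulators that hold Hox genes off or on gave 1 call. Of 19 Polycomb genes, which keep Hox genes silent, 0 were called in either fit, and Jarid2 (log2 fold change 0.32, SE 0.11) and Pcgf2 (0.27, SE 0.1) had the smallest p-values between the sexes (edgeR adjusted p = 0.674 and 0.703). Of 13 Trithorax and DOT1L genes, which keep them active, 1 was called between the sexes and 0 with muscle. Kdm6a, an X-linked histone demethylase known to escape X inactivation, averaged 98.7 ± 9.25 CPM over the females and 51 ± 4.42 CPM over the males, and the log2 fold change was 0.95 (SE 0.094, adjusted p = 0.0082 by edgeR).

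Of 41 other limb patterning genes, 31 were tested and 0 were called between the sexes. Hand2, which sets the front-to-back axis of the limb bud, averaged 3.35 ± 0.36 CPM over the females and 5.51 ± 0.69 CPM over the males (log2 fold change -0.71, SE 0.16, adjusted p = 0.3 by edgeR). Irx3, a homeobox factor, averaged 29.7 ± 1.72 CPM over the females and 42.3 ± 6.72 CPM over the males (-0.51, SE 0.12, adjusted p = 0.37 by edgeR). For both genes, every female library lay below every male one, but neither passed the test; 4.71% of all tested genes had no overlap between the sexes in either direction. With the muscle score, where 4.87% of all tested genes were called higher, 2 of 31 were called, both higher with more muscle. Tbx15, a limb and muscle fibre factor, was one of them (slope 0.4, SE 0.06, edgeR adjusted p = 0.0079).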

How the data were processed

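RNA was sequenced from paw tissue with a stranded poly(A)-selecting kit, per the labels' protocols. The authors deposited whole-number read counts per gene symbol, with no normalization, 1 file per library. The submitters' processing notes name bcl2fastq, TopHat2, HTSeq and build mm9; their versions, the annotation and the strand setting were not given in the sources used here. Lines that name no gene (reads in no feature, 18 to 21.1%, and ambiguous reads, 0.198 to 0.231%) stayed out of library sizes.

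Counts were kept by filterByExpr (14790 of 22609 genes), scaled by TMM and tested with edgeR 4.0.16 in R 4.3.3 (glmQLFit, robust, and glmQLFTest), with sex alone or with sex and the fast muscle score (mean log2 CPM, prior count 2). P-values were adjusted over all tested genes, with calls at 0.05; SE is the size of the log2 value over the square root of F. CPM are TMM-scaled. CPM per kb uses exon lengths from GENCODE vM21 on GRCm38 for all 42 members, which is not the authors' mm9 annotation, and promoters are RefSeq's on GRCm38.p6. The table of promoters held 23 of the 42 members. The statistic of a chi-square comparison of libraries of the same sex, over genes of at least 20 counts, was 13.2 or more per degree of freedom, so none looked like a repeat of another library.

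Members, lists and tests were chosen with earlier results of these data known. Every member was to be named; some genes that these rules name are not reported here. Of other lists, called genes were named, and otherwise the 2 with the smallest p. Pax7 and Calcr were named after their values were seen, as was the sex check. Alternatives were other size factors, DESeq2 1.42.0, limma-voom (limma 3.58.1), other filters, a non-robust fit, a replicate block, the muscle score as a covariate or no sex term, and leaving out libraries. The scripts were tested on simulated data.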

Additional observations from a re-analysis of the deposited data

Results flagged for a closer look

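In 6 of 86 groups of 4 libraries, 1 library lay far from the other 3, by the size of the gap to its nearest neighbour against the group's whole range (Dixon's 95% criterion); chance gives about 1 in 20 such groups. All values are log2 CPM. Hoxa10 stood at 4.64 in male replicate 2, against 3.22 to 3.37 in the other males. The summed HoxA cluster stood at 6.82 in the same library, against 6.52 to 6.54 in the other males, and the sum of paralogs 9 to 13 at 7.34, against 7.05 to 7.10. Both sums include Hoxa10, so these flags are not independent of one another. Male replicate 2 was also the library with the highest fast muscle score (10); the part of muscle in these 3 values was not tested. Hoxb7 stood at 1.40 in male replicate 1, against 1.73 to 1.79 in the other males. Hoxc9 stood at 2.32 in male replicate 3, against 2.58 to 2.59 in the other males. Hoxc4 stood at 1.25 in female replicate 4, against 1.61 to 1.63 in the other females.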

How the results depend on the processing

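Between the sexes, 0 members were called under each of the 18 alternatives run, with 0 to 3 members at an unadjusted p under 0.05. Over all genes, the count between the sexes was 14, against 111 with DESeq2, 7 with the replicate block, 8 without male replicate 3 or 4, and 9 without female replicate 3 and male replicate 2 (the last chosen after seeing the data). With the fast muscle score, 3 members were called, against 6 with DESeq2 (Hoxc13, Hoxd11 and Hoxd13 added), 4 with no filter on low counts (Hoxd11 added), and 2 with the size factors of DESeq2 or with limma-voom, where Hoxa10 was lost (adjusted p = 0.053 and 0.054). The count was 0 with the replicate block, and 0 without the 2 libraries farthest from the median score, female replicate 3 and male replicate 2. It ran between 0 (without female replicate 1) and 4 (without female replicate 2, Hoxd13 added) when 1 library was left out. Over all genes, the count with the score was 844, against 1933 with DESeq2, 264 with the replicate block, 355 without those 2 libraries and 289 to 2312 with 1 library left out. The cause of these shifts was not tested. Over the alternatives, the slope of Hoxa13 ran between 0.28 and 0.46, that of Hoxa10 between 0.14 and 0.28 and that of Hoxa11 between 0.12 and 0.24, so each kept its direction. With the replicate block, their adjusted p-values were 0.104, 0.204 and 0.148. Same-numbered female and male libraries deviated with correlations of -0.31, -0.17, -0.09 and -0.27, and no library correlated best with its own number. The highest correlations were 0.77 (female replicate 1 with male replicate 2) and 0.70 (female replicate 3 with male replicate 4). The fast muscle scores were 9.54 and 10 in the first of these pairs, and 0.673 and 4.92 in the other. Pairing by replicate number with muscle content held equal was not tested. Cluster and paralog shares of Hox counts are ratios within 1 library, so size factors, filters and fits cannot change them. Their means with a library left out are not given here. Other size factors moved the median log2 fold change of all genes by 0.013 or less in size. Depth limits Hoxb1, Hoxb5, Hoxb8, Hoxd3, Hoxd11, Hoxd12 and Pitx1, each with under 30 counts in every library.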
